A study of Mus musculus with 2 samples.

Results

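Saa3-high fibroblasts were the fibroblasts of mouse vein grafts with the most RNA of Saa3, which encodes serum amyloid A3, a secreted acute phase protein made largely outside the liver. Members were chosen by unique molecular identifiers (UMIs), each of which stands for 1 captured RNA molecule. A barcode, taken as 1 cell, was kept when it held 500 or more genes and 1000 or more UMIs, of which mitochondrial genes made up no more than 10%. It was taken as a fibroblast when Col1a1, Col1a2, Col3a1 and Dcn, the genes of the main fibrillar collagens and of decorin, made up at least 1.5% of its UMIs and when no UMI of Cdh5 (endothelial cadherin) or Sox10 (a Schwann cell transcription factor) was seen. Members also held at least 60 UMIs of Saa3 and under 10 of Pi16, a gene of adventitial progenitor fibroblasts, per 10000 UMIs. The rule gave 807 members among 24349 deposited barcodes, of which 21983 were kept and 12830 were fibroblasts. The conventional library held 542 members and the No-Touch library 265.

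The study took cells from vein grafts, which are veins implanted into the circulation, in C57BL6/J mice aged 10-12 weeks old. In the No-Touch technique the vein is harvested with its surrounding tissue, whereas conventional grafts are stripped of it. Each group was 1 single-cell RNA library of cells sorted as CD45-, the gate that leaves out leukocytes. The sources used here give neither the number of animals nor the time after grafting, and they do not settle whether kit v2 or V3 was used. Each group being a single library, nothing could be tested, and every difference between the libraries below is between those libraries and not between graft types.

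Acute phase proteins are secreted in inflammation, mostly by the liver, and bind lipids, haemoglobin, iron carriers or bacterial products. Fibroblasts of the vessel's outer coat can take on an inflammatory state in which they secrete such proteins, complement components and chemokines. In lymphoid organs, specialised fibroblasts make CXCL13 and CCL19, which guide B cells and T cells, and CXCL12, which retains many leukocytes and progenitors.

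The libraries differed in depth and in sex-linked RNA. The median member held 24471.5 UMIs in the conventional library and 40471 in the No-Touch one, against 19531 and 32979 in other fibroblasts, which here are fibroblasts under both the Saa3 and the Pi16 limit. In the conventional library 758 fibroblasts carried UMIs of Xist and none of the Y-linked genes, and 2603 carried Y-linked UMIs and no Xist, each at a minimum of 2 UMIs. In the No-Touch library 0 fibroblasts were of the first kind and 7063 of the second. Sex, depth and graft type cannot be told apart across the libraries, so values in the cells with Y-linked UMIs alone are given where they bear on a result. The libraries shared 22 barcode sequences, of which 1 was a conventional member.

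Members were 11.02% of conventional fibroblasts (542 of 4918, exact 95% interval 10.2 to 11.9) and 3.35% of No-Touch fibroblasts (265 of 7912, 2.96 to 3.77). The intervals, Clopper-Pearson for shares and Garwood for counts, cover counting error only. The higher share in the conventional library was also seen within the cells with Y-linked UMIs alone, at 9.99% (8.86 to 11.2) and 3.38% (2.97 to 3.83). Conventional cells with Xist held the highest share, 14.5% (12.1 to 17.2). A further 135 conventional and 37 No-Touch fibroblasts passed the Saa3 limit and were left out for their Pi16. Among Pi16-high fibroblasts these were 10.5% and 1.79%, so the libraries lay in the same order on both sides of the Pi16 limit.

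Saa3 itself, the gene that chose the members, spanned a wide range inside the set. The lowest conventional member held 60.1 Saa3 UMIs per 10000, the median 168 and the highest 1902. The lowest No-Touch member held 60.1, the median 131 and the highest 812. In other fibroblasts the medians were 2.13 and 0.630, close to the 1.92 and 0.549 of endothelial barcodes, used here as a gauge of free RNA. Members held 71.7% of all fibroblast Saa3 UMIs in the conventional library and 65.5% in the No-Touch one. Endothelial barcodes reached the Saa3 limit in 3 of 1234 conventional cells and 0 of 754 No-Touch cells, the latter with an exact 95% upper bound of 0.488%.

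**Figure D1:**
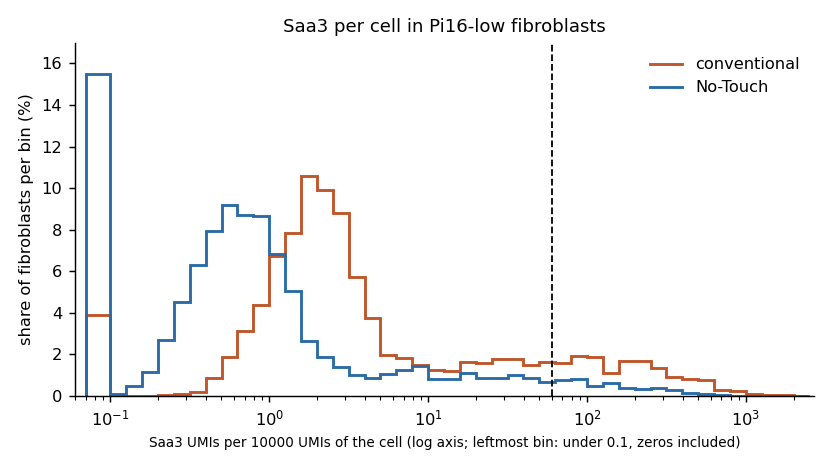
Share of Pi16-low fibroblasts (%, y axis) in bins of Saa3 UMIs per 10000 UMIs (x axis, log scale), by library, with the limit of 60 dashed. The leftmost bin holds cells under 0.1, zeros included. Beyond it both libraries peak far below the limit, near the medians of 2.13 and 0.630 in other fibroblasts, and run on in a flat shoulder through it with no gap.

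No gap separated members from the cells just below the limit. In the conventional library 46 cells lay from 50 to 60 Saa3 UMIs per 10000 and 46 from 60 to 70. Their C3 was 7986 and 7332 UMIs per 1000000 (CPM, a gene's UMIs summed over cells, per 1000000 UMIs in all), and their Hp 4445 and 4615. In the No-Touch library 31 and 26 cells lay there, with C3 at 4135 and 4365 and Hp at 1997 and 4020. C3 differed across the limit by less than Hp did in the No-Touch library. Just outside and just inside the limit, Cxcl13 stood at 27.9 and 273 CPM, Cxcl12 at 1223 and 1844, Ccl19 at 939.8 and 1237 and Lcn2 at 970.2 and 605 in the conventional library. In the No-Touch library Ccl19 stood at 520.1 and 908, Cxcl12 at 1421 and 1653 and Lcn2 at 96.9 and 225. Of these genes only Lcn2 and C3 in the conventional library were lower just inside the limit.

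The members carried the RNA of fibroblasts. Pdgfra, the receptor for platelet-derived growth factor alpha and a fibroblast marker outside the rule, stood at 267 CPM in conventional and 368 in No-Touch members. In endothelial barcodes it stood at 28.5 and 35.2 CPM. Lum, which encodes the collagen-binding proteoglycan lumican, stood at 1294 and 1312 CPM against 146 and 222. Markers of other cell types were low for most lists. The summed level of 13 leukocyte markers was 61.1 and 44.7 CPM in members against 67.2 and 45.3 in other fibroblasts, with Ptprc, the gene of CD45, at 1.46 and 3.61 in members. The 11 mesothelial markers summed to 80.1 and 13.6 CPM, led by Wt1 at 44.6 and 9.49, with Upk3b at 0 in both. In other fibroblasts they summed to 76.4 and 14.5. The 10 mural markers summed to 301 and 146 CPM, led by Acta2, against 370 and 311 in other fibroblasts. The 7 epithelial markers summed to 197 and 11.3, nearly all of it Pth, the parathyroid hormone gene, against 283 and 111.

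All 5 marker genes that accompany the name of these cells were higher in members than in other fibroblasts in both libraries. Saa3 (ENSMUSG00000040026) chose the cells. C3, the central complement protein, stood at 9296 CPM in conventional members and 4873 in other fibroblasts, and at 5195 and 2637 in the No-Touch library. Hp, which encodes the haemoglobin carrier haptoglobin, stood at 6370 against 1075 and at 4907 against 893. Ccl19 stood at 1171 against 656 and at 889 against 394. Cxcl13 stood at 464 against 74.2 and at 121 against 17.9, but its RNA came from few cells, as described further on. Since Saa3 was counted in the same cells, these differences describe the set and are not independent of how it was chosen.

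Across all genes few were as far apart as Hp. Of 2710 genes of at least 50 CPM in both libraries, outside the rule, 15 (0.554%) were at least 2-fold higher in members in both libraries and 17 (0.627%) at least 2-fold lower. Among genes of at least 100 CPM in both libraries, the gene furthest apart upward was Lcn2 (chromosome 2, 32384633 to 32388252, minus strand, mm10), which encodes lipocalin-2, a protein that binds bacterial iron carriers. It stood at 1546 CPM (1525 to 1567) in conventional members and 150 in other fibroblasts, and at 550 CPM (536 to 564) and 29.3 in the No-Touch library. On the log2 scale with 1 CPM added, the ratio of members over other fibroblasts was 3.35 and 4.18. It was followed by Cxcl13 (2.63 and 2.70), Hp (2.57 and 2.46) and Cxcl12 (1.81 and 1.71). Below that level Csf3, the gene of G-CSF, had ratios of 2.44 and 3.00 and Mmp13 of 3.18 and 1.96, both chosen after their values were seen.

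Cxcl12 (chromosome 6, 117168535 to 117181367, plus strand) was the evenest of these across the libraries. Members held 2437 CPM in the conventional library and 2573 in the No-Touch one, other fibroblasts 695 and 785, and Pi16-high fibroblasts 478 and 411. Chl1, a gene of a neural cell adhesion protein, stood at 286 and 258 CPM in members against 111 and 55.9. Srgn, the core protein of the proteoglycan serglycin, stood at 319 and 365 against 144 and 117. Mmp3, the protease stromelysin-1, stood at 1725 and 1914 CPM against 872 and 592. The remaining genes among the 15 furthest upward of at least 100 CPM were Tmem176a, Tmem176b, Lbp, Clu, Steap4, Serpina3n, Cp and Lgi2, with log2 ratios from 0.96 to 1.38 in either library.

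**Figure D2:**
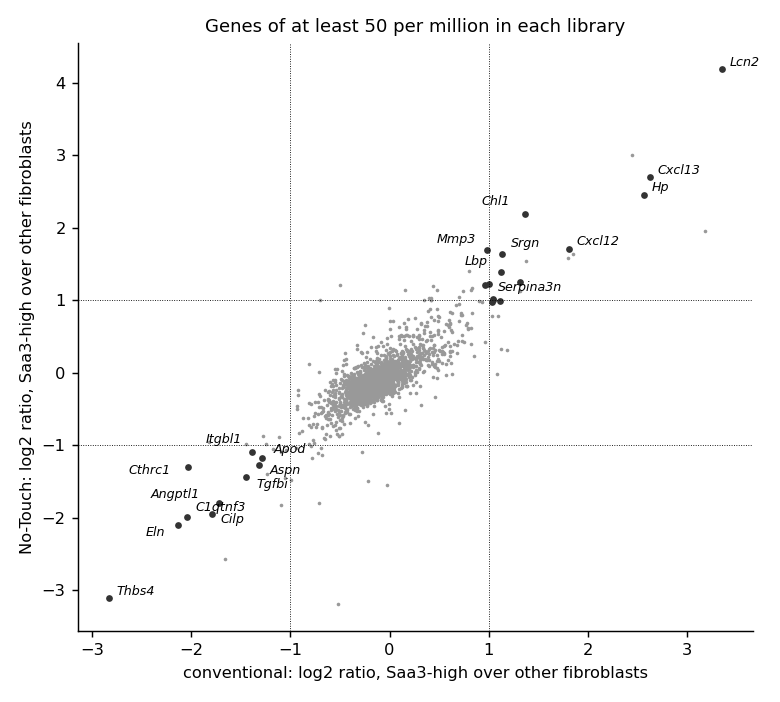
Log2 ratio of CPM + 1 in Saa3-high over other fibroblasts, conventional library on the x axis and No-Touch library on the y axis, for genes of at least 50 CPM in both libraries outside the selection rule. Each point is a gene, dark points are the 25 genes furthest apart in both libraries among those of at least 100 CPM, and dotted lines mark 2-fold. Lcn2, Cxcl13, Hp and Cxcl12 lie at the upper right and Thbs4, Eln, Angptl1 and Cilp at the lower left.

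Most acute phase genes lay higher in the members. Of the 10 acute phase genes at 10 CPM or more in both libraries, 8 were at least 1.5-fold higher in both and 0 lower, against 1.12% higher and 2.1% lower among all 7921 genes of that level. Saa3, which chose the cells, was not counted. The median log2 ratio of the list was 1.12 in the conventional library and 1.18 in the No-Touch one, beside −0.16 and −0.14 over all genes. Lbp, the carrier of bacterial lipopolysaccharide, stood at 508 and 602 CPM in members against 233 and 230. Cp, the copper-bound iron oxidase ceruloplasmin, stood at 785 and 555 against 361 and 278. Serpina3n, a serine protease inhibitor, stood at 974 and 493 against 487 and 211. The close relatives Saa1 and Saa2, which the liver makes in inflammation, reached 30.2 and 13.2 CPM and 18.3 and 5.06 CPM in members. They are near copies of each other, and how their reads were shared out is uncertain.

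Complement genes followed in part. Of 12 measured complement genes, 5 were at least 1.5-fold higher in both libraries and 0 lower, beside 1.12% and 2.1% of all 7921 genes. Cfb, the protease subunit of the alternative pathway, stood at 1059.7 and 1259.9 CPM against 565 and 633. Serping1, the inhibitor of the first complement component, stood at 4754 and 3509 against 2739 and 2285. C4b, a classical pathway component, had a log2 ratio of 0.34 in both libraries. The others counted were C3, C1ra and Clu.

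Some lymphoid stromal genes and cytokines of lymphocyte survival were part of the profile. Among 12 lymphoid stromal genes 6 were at least 1.5-fold higher in both libraries and 0 lower, beside 1.12% and 2.1% of all 7921 genes. The 6 include Cxcl13 and Ccl19, markers that accompany the name of the cells, and Clu, already counted among complement genes. The count is therefore not separate from those results. Tnfsf11, the cytokine RANKL, stood at 33.7 and 27.8 CPM in members against 11.6 and 12.9. Tnfsf13b, the B cell survival factor BAFF, stood at 65.4 and 71.6 against 36.6 and 46.4. Pdpn, podoplanin, stood at 203 and 183 against 188 and 151 and was not past 1.5-fold. Il7, the T cell survival factor, stayed at 5.31 and 4.70 CPM, and Madcam1 at 0.218 and 0.

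Of 20 receptors of inflammatory signals 3 were at least 1.5-fold higher in both libraries: Cd14, the lipopolysaccharide co-receptor (42.7 and 30.2 CPM against 16.1 and 12.5), Il1r1, the interleukin-1 receptor (174 and 205 against 104 and 118), and Ifnar2. The receptor for interleukin-33, Il1rl1, was lower in both (8.23 and 6.96 against 38.0 and 17.9). Over all 7921 genes, 1.12% were at least 1.5-fold higher in both libraries and 2.1% lower. Of 17 NF-kappaB subunits and targets only Sod2, the mitochondrial superoxide dismutase, was higher in both, at 536 and 518 CPM against 307 and 195. None of 24 interferon response genes and none of 12 STAT3 and C/EBP genes was past 1.5-fold in the same direction in both libraries. In lists of this size such counts lie near the shares over all genes. Among 14 genes of iron, copper and oxidative stress 4 were higher in both, Fth1 (ferritin heavy chain, 13143 and 8803 CPM against 7989 and 5047), Cp, Steap4 and Sod2.

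Several matrix and contractile genes were lower in members, where 2.1% of the 7921 genes were at least 1.5-fold lower in both libraries and 1.12% higher. Thbs4 (chromosome 13, 92751590 to 92794818), the matrix protein thrombospondin-4, stood at 46.4 CPM in conventional and 37.9 in No-Touch members against 336 in other fibroblasts of both libraries. Eln, elastin, stood at 84.7 and 130 CPM against 375 and 559. Cilp, Angptl1, C1qtnf3, Tgfbi, Cthrc1, Aspn, Apod and Itgbl1 made up the rest of the 10 furthest downward. Of 20 matrix glycoprotein and elastic fibre genes 6 were at least 1.5-fold lower in both libraries and 0 higher. Of 9 small leucine-rich proteoglycans 4 were lower, among them Aspn (asporin, 270 and 463 CPM against 675 and 1125) and Ogn (osteoglycin). Of 11 myofibroblast genes 4 were lower and 0 higher, and of 9 adventitial progenitor genes 5 were lower. Of 13 collagens outside the rule 1 was lower in both libraries and 0 higher, with median log2 ratios of −0.25 and −0.47. That collagen was Col8a1.

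Across fibroblasts Hp, Lcn2 and Cxcl12 were higher in the highest Saa3 band than in the lowest in both libraries. In bands of Saa3 from under 5 to 240 and over per 10000, with Saa3 left out of the total, Hp went from 741 to 10448 CPM in the conventional library and from 678 to 7779.9 in the No-Touch one. Lcn2 went from 83.8 to 2966 and from 18.4 to 1392. Cxcl12 went from 550 to 3253 and from 666 to 3416. The highest band held 180 and 59 cells and the lowest 2462 and 4958. Cxcl13 and Ccl19 did not climb evenly. Over the 6 No-Touch bands Cxcl13 stood at 14.9, 49.8, 22.2, 4.39, 147 and 328 CPM. Ccl19 stood at 628, 737, 782, 1270.4, 1198 and 1121 CPM over the conventional bands and at 360, 660, 571, 931, 928 and 826 over the No-Touch bands. Eln was lower at high Saa3, going from 430 to 58.7 and from 612 to 82.4 CPM. Icam1, an adhesion molecule for leukocytes, stood at 1592 in the lowest and 1393 in the highest conventional band and at 499 and 624 in the No-Touch bands, so it differed more by library than by Saa3. Lum lay between 1098 and 1361 CPM across the conventional bands and between 1286 and 1351 across the No-Touch bands. The cells behind these bands are those the rule sorted, so the bands describe the set and test nothing.

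**Figure D3:**
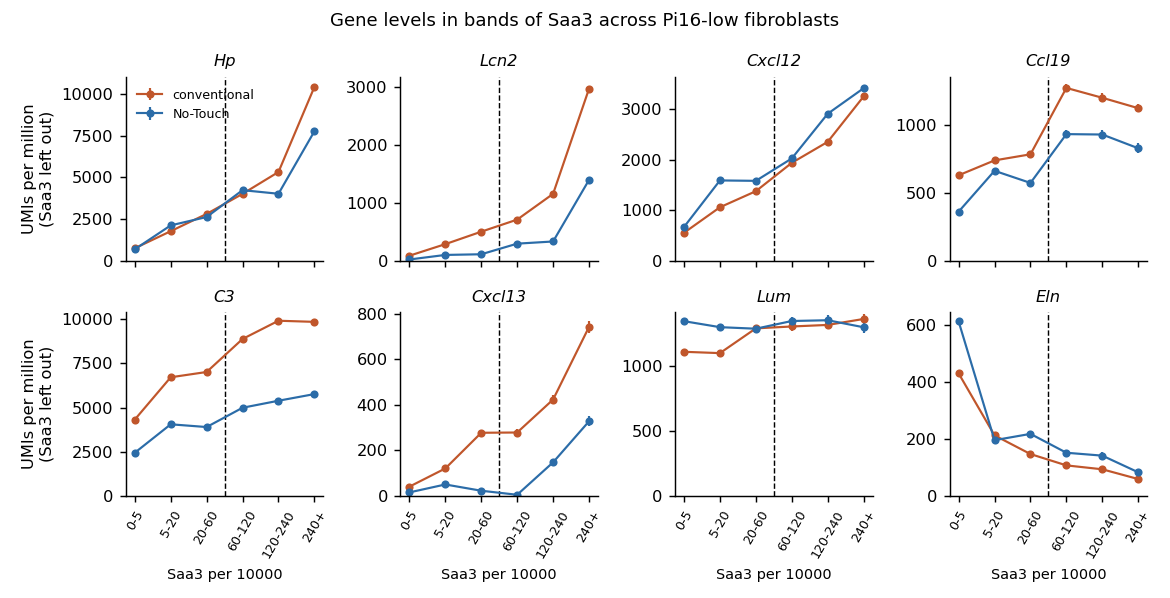
Level of 8 genes (CPM with Saa3 left out of the total, y axis) in 6 bands of Saa3 UMIs per 10000 (x axis) over Pi16-low fibroblasts, by library, with exact 95% counting intervals and the limit of 60 dashed. Hp, Lcn2 and Cxcl12 climb through the limit to 10448, 2966 and 3253 CPM in the conventional library, Lum stays level and Eln falls away.

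Beside these values, the 250 bases before the RefSeq start of 5 secreted products were read (GRCm38.p6, 5′ to 3′ on the gene's strand). Capitals mark matches, on either strand, to the C/EBP motif TTNNGCAA, to the STAT motif TTCNNNGAA and to the NF-kappaB consensus. All 5 are acute phase, complement or cytokine genes described here, picked with their values known, and they lie at chr7:46715677-46715926 (Saa3, minus strand), chr2:32387740-32387989 (Lcn2, minus), chr17:57228137-57228386 (C3, minus), chr5:95956689-95956938 (Cxcl13, plus) and chr5:30012864-30013113 (Il6, plus).
Saa3: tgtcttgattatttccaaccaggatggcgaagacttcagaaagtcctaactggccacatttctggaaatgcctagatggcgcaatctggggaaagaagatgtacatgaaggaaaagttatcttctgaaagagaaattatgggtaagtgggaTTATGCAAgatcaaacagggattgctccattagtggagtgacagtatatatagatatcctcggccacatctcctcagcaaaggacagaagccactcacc
Lcn2: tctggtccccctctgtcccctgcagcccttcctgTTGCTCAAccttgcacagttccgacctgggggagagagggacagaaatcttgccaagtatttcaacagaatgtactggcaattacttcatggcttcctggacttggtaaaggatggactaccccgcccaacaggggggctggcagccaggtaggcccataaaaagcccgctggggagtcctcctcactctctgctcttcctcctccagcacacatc
C3: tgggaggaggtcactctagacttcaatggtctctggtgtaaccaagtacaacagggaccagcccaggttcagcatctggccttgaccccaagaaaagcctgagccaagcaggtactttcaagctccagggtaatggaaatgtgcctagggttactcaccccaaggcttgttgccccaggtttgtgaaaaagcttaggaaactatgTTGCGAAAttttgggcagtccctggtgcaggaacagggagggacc
Cxcl13: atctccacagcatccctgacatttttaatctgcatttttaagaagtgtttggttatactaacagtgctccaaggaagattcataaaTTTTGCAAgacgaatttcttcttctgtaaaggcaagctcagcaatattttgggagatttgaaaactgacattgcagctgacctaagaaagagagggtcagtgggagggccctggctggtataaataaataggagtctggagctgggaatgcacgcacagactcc
Il6: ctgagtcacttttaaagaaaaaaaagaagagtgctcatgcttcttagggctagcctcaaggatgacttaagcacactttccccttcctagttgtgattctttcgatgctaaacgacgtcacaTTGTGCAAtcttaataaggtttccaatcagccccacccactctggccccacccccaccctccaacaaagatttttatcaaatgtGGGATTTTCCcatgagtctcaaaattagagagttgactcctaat
The 5 were picked by hand, so counts of matches among them test nothing. Each held 1 C/EBP match, which 9.56% of all 32851 RefSeq promoter windows of this length held. Its first base lay 99 bases before the start in Saa3, 216 in Lcn2, 45 in C3, 164 in Cxcl13 and 128 in Il6. Il6 also held the 1 NF-kappaB match among them, beginning 44 bases before its start, where 3.9% of all windows held such a match. None held the STAT motif, which 7.02% of all windows held. Among the 15 genes furthest upward in members 12 had a window (Hp, Lbp and Clu had no entry), and 4 of these held a C/EBP match, 2 an NF-kappaB match and 1 a STAT match. Among the 10 furthest downward 8 had a window and 0 held any of them, where 19.2% of all windows held at least 1. A match is a string of letters and not a shown binding site.

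Members differed strongly among themselves. To compare shares of cells across depths, each cell was thinned to 3000 UMIs, which left out 3 conventional members and 1 No-Touch member. Hp was then seen in 90.5% of conventional (87.7 to 92.9) and 89.4% of No-Touch members (85.04 to 92.8). Endothelial barcodes, used here as a gauge of free RNA, showed it in 31.2% and 28.3%. Cxcl12 was seen in 90.7% and 92.8% of members, against 27.6% and 28.6% of endothelial barcodes. Ccl19 was seen in 73.5% and 67.0%, against 12.8% and 11.4%. Leukocyte barcodes showed Hp in 46.1% and 41.3%, Cxcl12 in 24.1% and 20.6% and Ccl19 in 13.1% and 10.1%. The endothelial share was thus not the highest background for Hp. Other fibroblasts, thinned alike, showed Hp in 55.8% and 50.4%, Cxcl12 in 60.9% and 59.0% and Ccl19 in 54.5% and 41.0%. Before thinning, Hp, Cxcl12 and Ccl19 were seen in at least 95.8% of members of either library. Hp was then also seen in 76.4% and 79.2% of endothelial barcodes. After thinning most members thus held these genes, and so did many other fibroblasts.

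Lcn2 and Cxcl13 were more unevenly spread. Lcn2 was seen in 57.3% of conventional and 39.4% of No-Touch members after thinning, and in 83.6% and 72.1% before. After thinning it was also seen in 17.1% and 5.21% of other fibroblasts and 36.2% and 21.6% of endothelial barcodes. Leukocyte barcodes showed it in 47.6% and 15.7% and Schwann barcodes in 10.1% and 5.71%. The top 10% of conventional members by Lcn2 held 61.9% of its UMIs, and in the No-Touch library 67.4%. Cxcl13 was seen in 11.9% (9.27 to 14.9) and 5.30% (2.93 to 8.74) after thinning, and in 24.9% and 13.6% before, with 1.82% and 0.266% of thinned endothelial barcodes. The top 10% of members held 97.4% and 99.3% of all Cxcl13 UMIs. Its median member was at 0 in both libraries, and its highest at 169 and 47.5 UMIs per 10000.

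Single genes at 10 UMIs or more per 10000, a level chosen after the values were seen, marked groups of cells inside the set. Cxcl12 reached it in 73.6% of conventional and 72.8% of No-Touch members, Ccl19 in 34.7% and 31.3%, and Cxcl9 or Cxcl10, chemokines induced by interferon-gamma, in 26.2% (22.5 to 30.1) and 22.6% (17.7 to 28.2). Of other fibroblasts, 22.2% and 23.1% reached it for Cxcl12, 19.9% and 11.6% for Ccl19, and 12.9% and 21.5% for Cxcl9 or Cxcl10. For the last, the No-Touch share of other fibroblasts lay within the members' interval. Lcn2 reached the level in 30.8% (26.9 to 34.9) and 13.6% (9.70 to 18.3) of members, and in 2.59% and 0.323% of other fibroblasts. Csf3, the neutrophil growth factor G-CSF, reached it in 6.46% (4.54 to 8.87) and 2.64% (1.07 to 5.37) of members and in 0.907% and 0.161% of other fibroblasts. After thinning, Csf3 was seen in 19.5% and 6.44% of members and in 5.08% and 1.26% of other fibroblasts. Endothelial barcodes showed it in 30.8% and 7.97%, leukocyte barcodes in 7.33% and 1.57% and Schwann barcodes in 4.03% and 1.43%. The endothelial share was thus no common level of free RNA for Csf3, and what part free RNA plays in members was not tested. Il6, the cytokine interleukin-6, reached it in 1.29% (0.521 to 2.64) and 15.8% (11.7 to 20.8) of members, beside 1.13% and 7.90% of other fibroblasts. Isg15, an interferon-induced ubiquitin-like protein, reached it in 3.87% (2.41 to 5.86) and 14.3% (10.4 to 19.1), beside 1.72% and 10.3%.

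**Figure D4:**
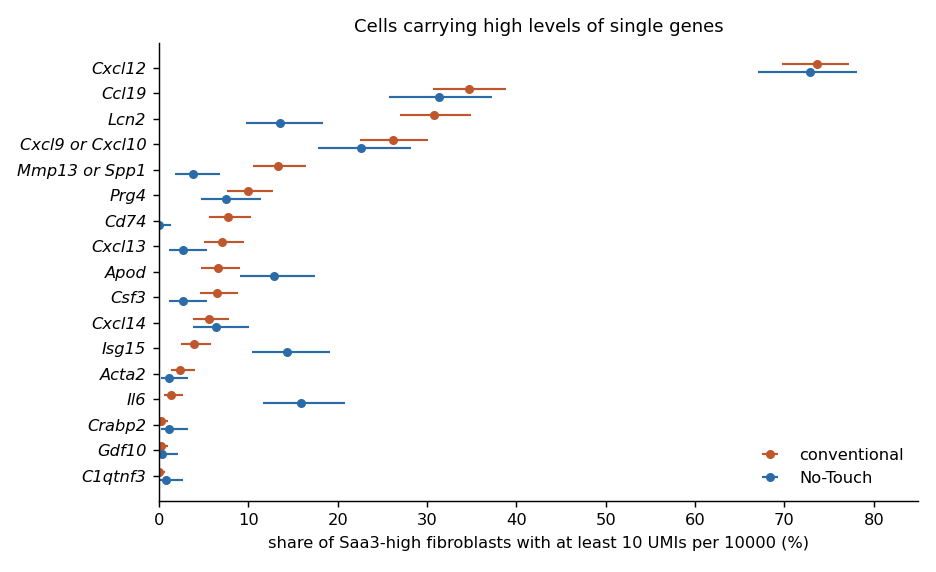
Share of Saa3-high fibroblasts (%, x axis) with at least 10 UMIs per 10000 of each gene or gene pair (y axis), by library, with exact 95% binomial intervals. Intervals of Cxcl12, Ccl19, Cxcl9 or Cxcl10, Cxcl13 and Csf3 overlap between libraries. Without overlap, Mmp13 or Spp1, Cd74 and Lcn2 lie higher in the conventional library and Il6 and Isg15 in the No-Touch one.

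The first of the smaller groups carried Mmp13, the protease collagenase-3, or Spp1, osteopontin. It held 72 of 542 conventional members, 13.3% (10.5 to 16.4), and 10 of 265 No-Touch members, 3.77% (1.82 to 6.83). Of other fibroblasts, 4.99% (4.25 to 5.81) and 2.54% (2.15 to 2.99) reached the same level, so the No-Touch intervals overlapped. In the conventional library these cells held more contractile RNA than the other members, with Acta2 (smooth muscle actin) at 553 against 93.9 CPM and Tagln at 379 against 67.6. Grem1, an antagonist of bone morphogenetic proteins, stood at 477 against 66.0 CPM, Inhba, an activin subunit, at 326 against 77.5, Il1rn, the interleukin-1 receptor antagonist, at 172 against 14.97 and Ctla2a at 623 against 98.1. C3 was lower, at 3526 against 10231 CPM, and so was Cxcl13, at 2.61 against 539. Their Saa3 was high, with a median of 289 per 10000. Rgs5, a pericyte gene, stood at 197 against 36.3 CPM. In the No-Touch library the 10 cells had the same order for Acta2 (285 against 68.5), Grem1 (260.2 against 2.73) and C3 (2709.5 against 5299). Other genes had the opposite order there. Lcn2 stood at 2690.4 against 1360.5 CPM in the conventional library but at 215 against 564 in the No-Touch one, Hp at 8036 against 6100.0 but at 3459 against 4968, and Ctla2a in the No-Touch cells at 6.73 against 8.94.

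The group with Cd74, the invariant chain of MHC class II, was found in the conventional library, in 42 of 542 members, 7.75% (5.64 to 10.3), and in 0 of 265 No-Touch members, with an exact 95% upper bound of 1.38%. Other fibroblasts reached that Cd74 level in 2.53% and 0.896%. In these 42 cells H2-Aa stood at 527 CPM against 36.0 in the other members, H2-Ab1 at 686 against 73.9 and H2-Eb1 at 434 against 36.2. Cxcl9 stood at 2810 against 548 and Cxcl13 at 1848 against 356. The leukocyte genes Ptprc, at 1.00 against 1.49 CPM, and Lyz2, at 7.01 against 9.73, were no higher in them than in the other members. Of the 42, 30 also reached the Cxcl9 or Cxcl10 level and 22 the Ccl19 level.

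The cells with Cxcl13 numbered 38 conventional members, 7.01% (5.01 to 9.50), and 7 No-Touch members, 2.64% (1.07 to 5.37). In them Cxcl13 stood at 5879 and 3291 CPM. Lcn2 stood at 3359 against 1404 CPM in the other conventional members and at 5049 against 397 in the No-Touch library. Apoe, apolipoprotein E, stood at 4333 against 2155 and at 2260 against 1316, and Cxcl12 at 3469 against 2356 and 5581 against 2471. Col1a1 was lower, at 2526 against 5451 and 4108 against 9248. Of the conventional cells with Cxcl13, 24 also reached the Ccl19 level and 8 the Cd74 level, whereas 0 reached the Mmp13 or Spp1 level. Cxcl13 was also uneven by sex within the conventional library, at 557 CPM in the 260 members with Y-linked UMIs alone and 45.01 in the 110 with Xist alone. Mmp13 went the other way, at 214 and 1135 CPM.

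The study's own contrast is between grafts. Within members 54 of 2869 genes of at least 50 CPM (1.88%) were at least 2-fold higher in the No-Touch library and 56 (1.95%) at least 2-fold lower. In other fibroblasts the counts were 51 (1.64%) and 45 (1.44%) of 3118. Il6 (chromosome 5, 30013114 to 30019981, plus strand) and Has1, a hyaluronan synthase, were among the highest. Il6 stood at 108 CPM in conventional and 497 in No-Touch members, and at 108 and 302 in other fibroblasts. Has1 stood at 133 and 631 in members and at 218 and 627 in other fibroblasts. In the cells with Y-linked UMIs alone the log2 ratio of No-Touch over conventional members was 2.08 for Il6 and 2.24 for Has1.

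Other genes higher in No-Touch members by the named rule were Nr1d1, a clock repressor (21.2 and 129 CPM), Myc (67.6 and 264), Ccl11, the chemokine eotaxin (123 and 407), S100a4, Cthrc1, Snhg6, Ccn3, Myadm, Isg15 and Socs1. All of these except Ccl11, whose log2 ratio there was 0.90, were at least 2-fold higher in the No-Touch library in other fibroblasts too. The lowest were Ctla2a (171 and 8.85 CPM), Pth, Mmp13 (549 and 55.3), Grem1 (123 and 13.1), Cd74 (270 and 36.7), Inhba, Spon1, Lars2, Ifitm1, Spp1, Hspb1 and Cxcl13 (464 and 121). Several of these were lower in No-Touch other fibroblasts too. Cxcl13 stood at 74.2 and 17.9 CPM there. After thinning, Mmp13 was seen in 4.13% and 1.17% of other fibroblasts, Grem1 in 4.36% and 1.19% and Spp1 in 15.3% and 8.12%. Mmp13 was at 214 and 51.1 CPM in the members with Y-linked UMIs alone, a log2 ratio of −2.05 beside −3.29 over all members. With the Mmp13 or Spp1 cells left out of both libraries, the log2 ratio of Grem1 went from −3.14 to −4.17 and that of Ctla2a from −4.13 to −3.32. Pth was 194 and 11.1 CPM in members and 278 and 110 in other fibroblasts. It makes up nearly all of the epithelial sum given above, and its part in other results was not tested.

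The acute phase profile that named the cells was itself lower in No-Touch members. Of 12 acute phase genes 6 were at least 1.5-fold lower and 2 higher, against 4.66% lower and 7.06% higher among 8136 genes, and the median log2 ratio was −0.55, beside 0.05 over all genes. Without Saa3 it was 6 of 11 lower and 2 higher, with a median of −0.60. Lcn2 had a log2 ratio of −1.49, Serpina3n of −0.98 and Hp of −0.38. Ptx3 and Steap4 were the higher members, with 1226 and 2071 CPM for Ptx3, the pattern recognition protein pentraxin-3. In other fibroblasts the list's median was −0.67, with 5 of 10 lower, beside 3.62% lower and 6.59% higher among 8442 genes and a median of 0.04. There, with Saa3 left out, 4 of 9 were lower and 1 higher, with a median of −0.38. Complement genes had 4 of 13 lower and 0 higher in members, with C3 at a log2 ratio of −0.84 and a median of −0.34. In other fibroblasts 3 of 13 were lower and 1 higher, with a median of −0.21.

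Of 12 STAT3 and C/EBP genes 3 were at least 1.5-fold higher in No-Touch members and 0 lower, beside 7.06% and 4.66% of all genes, and the list's median was 0.34. Socs3, the inhibitor induced by STAT3, stood at 499 CPM in conventional and 1366 in No-Touch members. Cebpb, the transcription factor C/EBP-beta, stood at 527 and 1377, and Cebpd at 893 and 1689. In other fibroblasts the same genes stood at 631 and 1298, 483 and 971, and 1247 and 1666 CPM. There 2 of the 12 listed genes were higher and 3 lower, with a median of 0.09. NF-kappaB genes had 0 of 17 higher and 4 lower in members, Nfkbiz among them at 1271 and 594 CPM, and a median of −0.07. In other fibroblasts 0 of 17 were higher and 6 lower, beside 6.59% and 3.62% of all genes, with a median of −0.39.

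Chemokines differed in both directions. Ccl2, which draws monocytes, stood at 4255 CPM in conventional and 7244 in No-Touch members, whereas Cxcl2, which draws neutrophils, stood at 4208 and 1629.6. Cxcl1, another neutrophil chemokine, stood at 7626 and 8209.7 and was not past 1.5-fold. Cxcl9 stood at 712 and 473 in members and at 336 and 480 in other fibroblasts. Its excess over other fibroblasts was thus seen in the conventional library, where the log2 ratio was 1.08, and not in the No-Touch library, where it was −0.02, a difference that was not tested. Icam1 stood at 1478 and 600.05 CPM.

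Several interferon response and collagen genes stood higher in No-Touch cells, inside the set and outside it. Of 24 interferon genes 11 were at least 1.5-fold higher in No-Touch members and 0 lower, beside 7.06% and 4.66% of all genes, and the list's median log2 ratio was 0.52. In other fibroblasts 17 of 24 were higher, beside 6.59% of all genes, with a median of 0.74. Isg15 stood at 178 and 532 CPM in members and 131 and 435 in other fibroblasts. Of 16 collagens 6 were higher and 0 lower in members, with a median of 0.55 there and 0.55 in other fibroblasts. Col3a1 and Col1a1 of the rule were among them, and of the 13 collagens outside the rule 4 were higher in members and 4 in other fibroblasts, with medians of 0.54 in both.

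MHC genes differed in both directions. B2m and H2-T23 of class I stood at 2167 and 3689 CPM and at 174 and 321 in members. Of 15 MHC genes 3 were at least 1.5-fold higher in No-Touch members and 4 lower, beside 7.06% and 4.66% of all 8136 genes. The lower ones were H2-Aa, H2-Ab1, H2-Eb1 and Cd74 of class II, with log2 ratios from −2.85 to −1.19. In other fibroblasts 4 of 15 were higher and 1 lower, beside 6.59% and 3.62% of all 8442 genes. Cd74 had a ratio of −1.15 there, and the other 3 of class II lay between −0.31 and −0.22. How reads were split between the near-identical class I genes is uncertain.

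**Figure D5:**
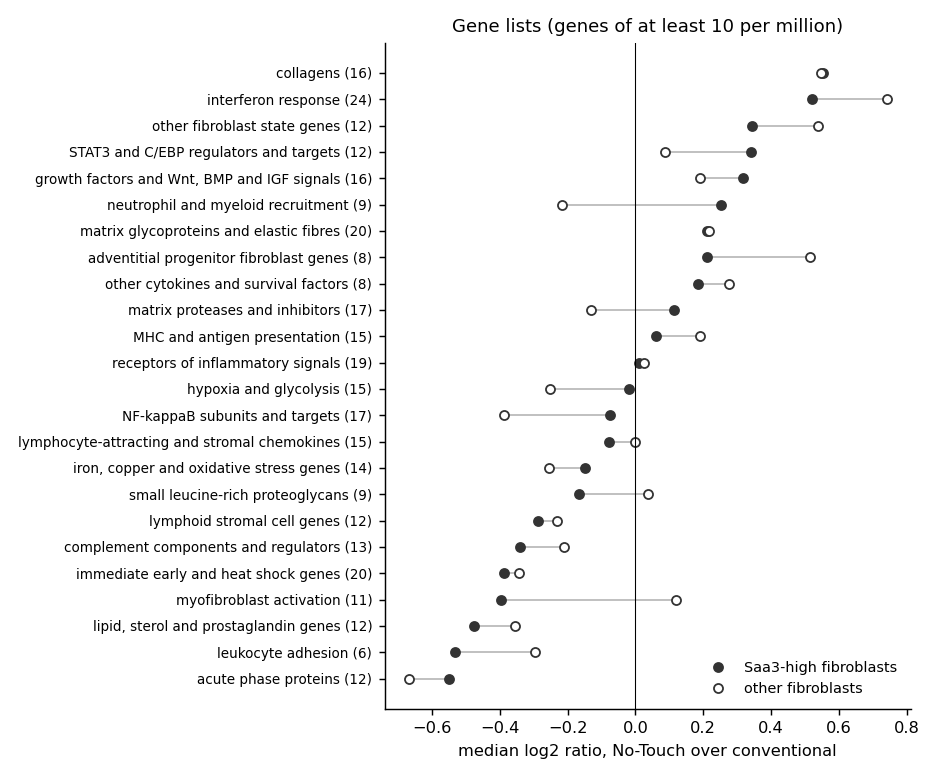
Median log2 ratio of CPM + 1, No-Touch over conventional (x axis), for gene lists (y axis, number of genes of at least 10 CPM in brackets), in Saa3-high fibroblasts (filled) and other fibroblasts (open). Collagens and the interferon response lie at the top with medians of 0.55 and 0.52 in members, and acute phase proteins at the bottom with −0.55.

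Some contractile and mural genes were lower in No-Touch members. Of 11 myofibroblast genes 4 were at least 1.5-fold lower and 2 higher, beside 4.66% and 7.06% of all genes, with a median of −0.40 in members and 0.12 in other fibroblasts. The higher ones were Cthrc1 and Lrrc15. Acta2 stood at 158 and 77.2 CPM in members and 192 and 166 in other fibroblasts, and Tagln at 111 and 42.9 and at 183 and 152. Of 7 measured mural markers 5 were lower in members. The summed mural level per member had a median of 1.13 and 0.789 UMIs per 10000 and a highest cell at 134 and 36.9, so few cells held most of it. With the Mmp13 or Spp1 cells left out, Acta2 stood closer in the 2 libraries, at 93.9 CPM in conventional and 68.5 in No-Touch members. What part mural RNA or those cells play in the contractile genes was not tested.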

How the data were processed

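The authors deposited 1 gene-by-barcode matrix of UMI counts per library, whole numbers with no normalization. Cell Ranger 3.1.0 is named in the submitters' processing notes and 6.0.0 in the file headers, and which made the counts is not settled. The conventional library held 11899 deposited and 10458 kept barcodes, the No-Touch library 12450 and 11525. Members' UMIs summed to 13736917 and 11069143, so counting error is small for all but low genes, and it leaves out differences between animals. UMIs were summed per library and population and scaled to 1000000 (CPM), and ratios are log2 of CPM + 1. Gene names and positions are those of mm10 with GENCODE annotation. The genes named were the 15 highest and 10 lowest over other fibroblasts and the 12 highest and 12 lowest between libraries, of at least 100 CPM in the higher of the populations compared, in both libraries for the former, beside list genes. Possible doublets were kept in the reported values, and barcodes with the highest Scrublet scores were removed as an alternative. The members and lists were chosen with earlier results of these data known. Python 3.11.15, numpy 2.4.6, scipy 1.17.1, scanpy 1.11.5 and, for an alternative scaling, edgeR 4.0.16 were used, and the ratio scripts were tested on simulated data. With 1 library per group no p-value was computed.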

Additional observations from a re-analysis of the deposited data

Results flagged for a closer look

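Cxcl14, a chemokine gene, lay on opposite sides of other fibroblasts in the 2 libraries by summed CPM. Its log2 ratio of members over other fibroblasts was −0.71 in the conventional library, with 307 against 501 CPM, and 1.01 in the No-Touch library, with 223 against 110 CPM. It was the only gene of 2573 that was at least 1.5-fold apart in opposite directions, and the difference between the libraries was not tested. Shares of cells did not lie on opposite sides after thinning to 3000 UMIs. Cxcl14 was then seen in 24.7% of conventional members against 20.3% of other fibroblasts, and in 17.8% against 11.1% in the No-Touch library. At 10 UMIs or more per 10000 the shares were 5.54% against 6.44% and 6.42% against 2.19%. The top 10% of members held 81.7% and 79.1% of its UMIs.

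Barcodes outside the fibroblast rule also reached the Saa3 limit. There were 289 in the conventional library, of 5540 kept barcodes that are not fibroblasts by the rule, and 47 of 3613 in the No-Touch library. Of the 289, 190 fell short on the share of fibroblast genes, 97 carried a Cdh5 UMI and 18 a Sox10 UMI. Of the 47, 9, 26 and 13 did. Their C3 stood at 7768 and 4640 CPM, their Hp at 4491 and 3641 and their Pdgfra at 258 and 315. At 2 or more UMIs, Ptprc was seen in 4 and 1 of them, Epcam in 1 and 1, and Msln or Upk3b in 0 and 0.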

How the results depend on the processing

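Under every alternative run, the medians of 24 gene lists stayed within an interval around the main median (384 of 384 values). That interval came from the ranked ratios of the list's own genes, and the sign of medians near 0 was not checked. Of 420 values of 28 named genes, 418 kept their side of 2-fold. The exceptions were Mmp13 (−0.68) and Spp1 (−0.37) with the Mmp13 or Spp1 cells left out, which the removal of these very cells fixes. The member share in the conventional and No-Touch libraries was 13.0% and 4.35% at a Saa3 limit of 40, 8.11% and 2.06% at 100, and 13.8% and 3.82% with no Pi16 condition. In the conventional library it was 10.0% without the Mmp13 or Spp1 cells and 9.99% in cells with Y-linked UMIs and no Xist, both alternatives chosen after seeing the data. Genes higher in No-Touch members numbered 91 at a minimum of 20 CPM, 31 at 100 and 127 at 10, and genes lower 101 at 20 and 149 at 10. Genes higher in members over other fibroblasts numbered 23 at 20, 9 at 100 and 28 at 10, and genes lower 43 at 10. Median-of-ratios and TMM scaling shifted log2 ratios by 0.07 and 0.05. The barcodes with the highest Scrublet scores were removed at an assumed rate of 0.8% per 1000 kept barcodes. That rate fixed their number at 875 (8.37%) and 1063 (9.22%), and 21 and 18 of them were members. No paired analysis was possible because each group was 1 library, which also left no replicate to leave out.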

Other observations

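Within the conventional library, members with Xist alone (110 cells) and with Y-linked UMIs alone (260 cells) differed in several genes. Hp stood at 8906 CPM in the former and 5845 in the latter, Lcn2 at 989 and 1730, Cd74 at 90.4 and 304, and Isg15 at 69.3 and 207. C3 was of closer size, at 8628 and 9222. The labels do not tie these cells to animals, so these are values of cells in 1 library.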
